A study of Mus musculus with 183 samples.

Results

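Ifrd1, its paralog Ifrd2 and 6 regulators of cellular polyamines (Odc1, Azin1, Oaz1, Oaz2, Amd1 and Sat1) were followed in mouse embryonic stem cells (mESCs) whose cytoplasmic RNA decay had been perturbed. The 8 genes were listed by name because their translation or decay is known to depend on short frames upstream of the coding sequence or on a programmed frameshift. Earlier results of these data were known when the list was made, so it is not independent of them. All 8 were among 53380 genes counted in the half-life experiment, and 5 were among 7240 mRNAs in a table of protein binding. That binding came from other mESC lines, in which the endogenous Skiv2l, Xrn1, Mtr4 or Aven gene carried a FLAG-Avi tag. The study lists these lines with CreERT2 and BirA at Rosa26. The half-life experiment held 47 RNA-seq libraries of 2 clones. Clone 5F was Rosa26Cre-ERT2/- Skiv2l fl/fl. Clone 7E was Aven-/-, with Rosa26Cre-ERT2/BirA-V6 and 3xFLAG-Avi tags on both Skiv2l alleles. Its labels name no floxed allele, while the study's list of cell lines gives such Aven-/- cells as Skiv2l fl/fl too. The same list writes the BirA allele as BirA-V5. Both clones were grown in serum and LIF and taken before (day 0) or after 4 days (day 4) of 4-hydroxytamoxifen (4OHT), which activates CreERT2 and removes the floxed exons. At each day, cells received a mock treatment (0 min) or actinomycin D, which blocks transcription, for 120, 240 or 360 min. Each group had 3 libraries, except clone 5F at day 0 and 120 min with 2. The replicates are called technical in the study's methods, so the p-values below measure only the spread between such libraries. Each genotype was 1 clone, so genotype and clone cannot be told apart.

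SKIV2L is the helicase that feeds mRNA into the cytoplasmic exosome, which degrades RNA from the 3′ end. AVEN is an RNA-binding protein. XRN1 degrades cytoplasmic RNA from the 5′ end, and MTR4 is the corresponding helicase of the nuclear exosome. A ribosome that translates an upstream frame terminates before the coding sequence, or within it where the frame overlaps the coding start. Such early termination can bring an mRNA to surveillance and decay. Polyamines are small cations made from ornithine. ODC1 makes the first of them, and AMD1 supplies the aminopropyl donor for the longer ones. Antizymes (OAZ1 and OAZ2) bind ODC1 and send it to the proteasome, AZIN1 sequesters antizyme, and SAT1 acetylates polyamines for export or breakdown. High polyamine levels promote the frameshift that antizyme synthesis needs and stall ribosomes on the Amd1 upstream frame. IFRD1 is a co-regulator of transcription, and IFRD2 binds inactive ribosomes.

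Upstream frames that open with ATG are shown because Ifrd1, Ifrd2, Azin1, Odc1, Amd1 and Sat1 all hold them. Frames with another start codon were not searched, so a regulatory frame of that kind would be missing here. In the Gencode M21 transcripts of GRCm38, 6 of the 8 mRNAs had at least 1 upstream ATG whose frame closed within the 5′ untranslated region. Over 20588 protein-coding genes, 46.9% had such a closed frame and 54.4% had at least 1 upstream ATG. The feature is therefore common, and the members differed in its size. Ifrd1 (minus strand, chr12:40201567-40248504) held 1 upstream ATG at base 32 of a 233-nt 5′ untranslated region. Its frame ran for 52 codons and stopped 43 nt before the coding start, so most of the region lay within that frame. The start and the end of the frame lie on the minus strand at chr12:40223138-40223167 and chr12:40222991-40223020, with the ATG and the stop codon in capitals.
Ifrd1 start: gagagaaacATGtatcgtttccgctcgcag
Ifrd1 end: cagtgcagctccatcggcTGAtcctcgctg

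The frames of the other 5 genes were shorter or overlapped the coding start. Amd1 (minus strand, chr10:40287458-40302186) held a frame of 6 codons close to its cap, at chr10:40302155-40302175 and 296 nt before the coding start. Odc1 (plus strand, chr12:17544794-17551505) held frames of 8 and 10 codons in a 489-nt region, the first at chr12:17544921-17544947. Azin1 (minus strand, chr15:38487427-38519266) held 3 frames of 17, 7 and 9 codons in a 590-nt region, and the last, at chr15:38501507-38501536, ended 1 nt before the coding start. Ifrd2 (plus strand, chr9:107587642-107593385) held a frame of 3 codons at chr9:107587667-107587678 and one of 34 codons. Sat1 (minus strand, chrX:155213132-155216449) held a frame of 4 codons at chrX:155216271-155216285 and one of 44 codons that ran across the coding start. Whole frames are printed with start and stop codons in capitals.
Amd1: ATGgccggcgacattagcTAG
Odc1: ATGacgacgtgctcggcgtataagTAG
Azin1: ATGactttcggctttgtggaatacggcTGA
Ifrd2: ATGtggatcTGA
Sat1: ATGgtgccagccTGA

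Oaz1 and Oaz2 held no upstream ATG, and their shared feature is the frameshift site inside the coding sequence. In Oaz1 (plus strand, chr10:80826656-80829290) the first reading frame stopped after 68 codons, and 227 codons were read when the base at 80828295 was skipped. In Oaz2 (plus strand, chr9:65668001-65690300) the corresponding lengths were 32 and 189 codons, with the base at 65686272 skipped. The windows around both sites, at chr10:80828280-80828309 and chr9:65686257-65686286, were identical at 28 of 30 bases. The stop codon of the first frame is in capitals, and in both genes it followed the codon TCC.
Oaz1: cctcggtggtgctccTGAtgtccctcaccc
Oaz2: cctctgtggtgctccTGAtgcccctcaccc

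**Figure D1:**
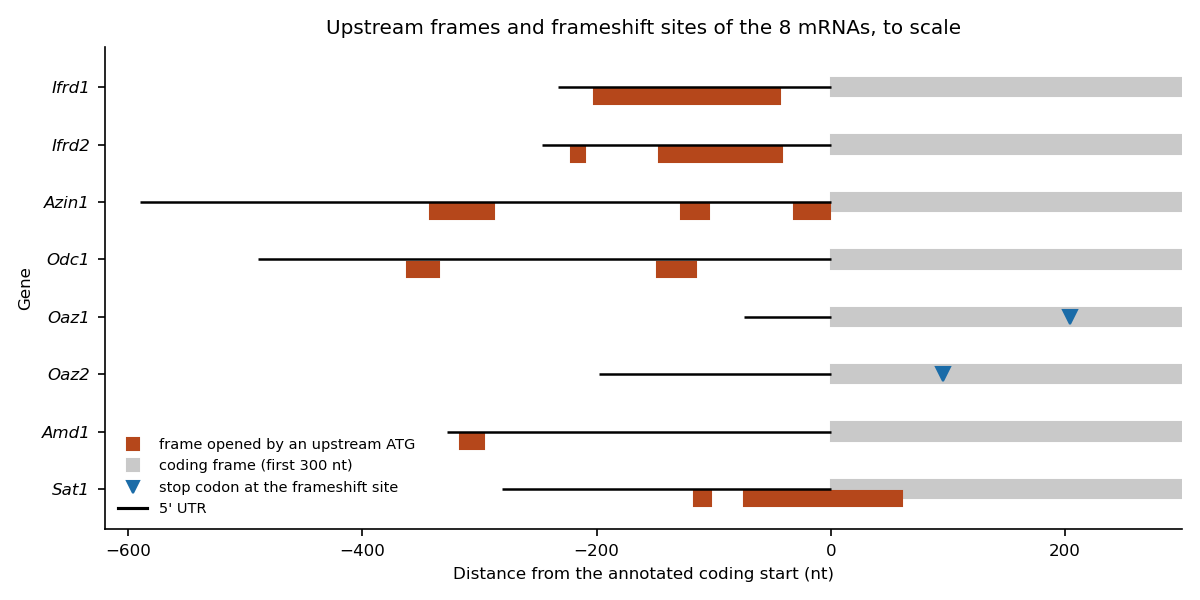
Upstream frames opened by an ATG and frameshift sites drawn to scale, with the distance from the annotated coding start in nt on the x axis. Each line is 1 gene. Ifrd1 has a single long frame of 52 codons and Azin1 has 3 frames. Oaz1 and Oaz2 have no such upstream frame but a stop codon at the frameshift site in the coding sequence.

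The libraries held 24440935 to 34114250 reads counted to genes. Before any member is compared, 3 properties of the libraries matter. Skiv2l did not fall in clone 5F: its mock level was 147.4, 147.4 and 147.9 CPM (gene counts scaled to 1000000 per library) at day 0 and 152.7, 132.1 and 144.0 CPM in the libraries labelled day 4. Clone 7E held 33.5, 36.1 and 31.2 CPM at day 0 and 13.8, 13.1 and 12.4 CPM at day 4, and its Aven level was 1.30 to 2.99 CPM against 32.1 to 36.1 CPM in clone 5F. The Skiv2l count covers the whole gene, floxed exons included, so the clone 5F libraries are named here only by their label. The ERCC spike-in RNA, added with the lysis buffer, took 0.655% ± 0.00986 (SD, n = 3) of the gene counts in the mock libraries of clone 7E at day 4, against 0.288% to 0.314% in the other mock groups. All 8 mESC markers had a mean over 1 CPM in every mock group, and their summed level was 3283 to 3320 CPM in clone 5F at day 0, 3033 to 3127 CPM in those labelled day 4, 3116 to 3218 CPM in clone 7E at day 0 and 2623 to 2701 CPM in clone 7E at day 4. The 5 markers of primitive endoderm summed to 104 to 109 CPM in clone 5F at day 0 and 78.6 to 81.6 CPM in those labelled day 4, but to 11.0 to 12.0 CPM in clone 7E. Fibroblast, trophoblast and mesoderm markers each summed to at most 9.27 CPM in every mock library, while the 2 neural markers summed to 27.5 to 29.4 CPM in clone 5F at day 0, 22.4 to 24.2 CPM in those labelled day 4, 62.98 to 67.98 CPM in clone 7E at day 0 and 41.5 to 45.9 CPM in clone 7E at day 4. The part of these differences in the results below was not tested. In bulk RNA, fewer cells of a type and less RNA per cell cannot be told apart.

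Ifrd1 was the member whose mock level rose most from day 0 to day 4. In clone 5F its level was 110.2, 102.4 and 110.1 CPM at day 0 and 210.0, 215.1 and 206.0 CPM in the libraries labelled day 4. In clone 7E it was 100.3, 96.1 and 106.5 CPM at day 0 and 222.9, 230.4 and 195.6 CPM at day 4. No library of the later day overlapped one of day 0 in either clone, and the 2 clones overlapped each other at day 0. The log2 change was 1.00 ± 0.0467 (SE, adjusted p = 2.36e-12, by the quasi-likelihood test of edgeR, Benjamini-Hochberg adjusted over all genes) in clone 5F and 1.14 ± 0.0576 (adjusted p = 1.06e-13) in clone 7E. By the size of its rise Ifrd1 ranked 220 of 16349 genes in clone 5F and 597 of 16333 in clone 7E. The difference between the clones in this change was 0.13 ± 0.0776 with an adjusted p of 0.31.

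Of the 8 members, 4 passed the test in clone 5F, where 24.5% of all genes tested did, and 4 in clone 7E, where 40.1% did. In each clone 3 members rose, beside 12.8% of all genes in clone 5F and 20.7% in clone 7E, and 1 member fell, beside 11.6% and 19.4%. The log2 changes of the 7 members other than Ifrd1 lay between -0.33 and 0.31. The median log2 change over the 8 was 0.07 in clone 5F and 0.13 in clone 7E, beside medians of -0.005 and -0.0084 over all genes.

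Azin1, the inhibitor of antizyme, rose in both clones. It was at 317.6, 294.6 and 315.5 CPM at day 0 and at 332.3 to 374.9 CPM in the 3 libraries labelled day 4 of clone 5F, a log2 change of 0.24 ± 0.0497 (adjusted p = 0.0014, edgeR). In clone 7E it was at 306.5, 285.5 and 297.6 CPM at day 0 and at 344.4, 363.8 and 327.3 CPM at day 4, a log2 change of 0.26 ± 0.0483 (adjusted p = 0.000143, edgeR). The later libraries lay above those of day 0 in both clones, at a much smaller distance than for Ifrd1.

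The antizyme mRNAs moved in different directions. Oaz2 fell in both clones, from 26.0, 24.8 and 25.5 CPM to 20.2, 21.2 and 20.2 CPM in clone 5F (log2 change -0.27 ± 0.0642, adjusted p = 0.00377, edgeR) and from 26.4, 25.5 and 27.5 CPM to 19.8, 21.2 and 20.4 CPM in clone 7E (log2 change -0.33 ± 0.0684, adjusted p = 0.000464). Every library of the later day lay below every library of day 0. Oaz1, the major antizyme, rose in clone 5F, from 23.5, 24.7 and 21.8 CPM to 26.5, 26.2 and 27.3 CPM (log2 change 0.23 ± 0.0645, adjusted p = 0.0138). In clone 7E it was at 25.2, 26.8 and 28.8 CPM at day 0 and at 28.6, 25.9 and 27.6 CPM at day 4, and these ranges overlapped (0.06 ± 0.0688, adjusted p = 0.495). The calls in clone 5F rested on few libraries: without replicate 1 the adjusted p was 0.0955 for Oaz1 and 0.0771 for Oaz2, and without replicate 3 it was 0.205 and 0.0577.

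Sat1, the acetylase at the head of polyamine breakdown, rose in clone 7E, from 19.1, 18.3 and 17.7 CPM to 21.8, 23.7 and 21.2 CPM (log2 change 0.31 ± 0.073, adjusted p = 0.00132, edgeR). In clone 5F it was at 20.0, 19.8 and 22.4 CPM at day 0 and at 20.2, 19.9 and 20.6 CPM in the libraries labelled day 4, with a log2 change of 0.0024 ± 0.0703. Odc1, the entry enzyme, was the most abundant member. It was at 441.2, 428.0 and 426.4 CPM at day 0 and at 403.6, 403.9 and 386.2 CPM in those labelled day 4 in clone 5F (-0.08 ± 0.0424, adjusted p = 0.171), and at 366.5, 343.5 and 358.5 CPM and 377.0, 382.1 and 363.3 CPM in clone 7E (0.11 ± 0.0452, adjusted p = 0.0549). Odc1 therefore did not pass the test in either clone. The difference between the clones in the day 4 change did pass it for Odc1 (0.19 ± 0.0566, adjusted p = 0.0271) and Sat1 (0.31 ± 0.0973, adjusted p = 0.0381), 2 of 8 members beside 11.9% of all genes tested. Both were higher in clone 7E, beside 6.65% of all genes. On the scale of each library's own spike-in reads, where the median difference over all genes was -1.03, both turned sign, to -0.84 for Odc1 and -0.72 for Sat1. With any of the 3 replicate numbers left out, neither difference passed the test: the adjusted p was 0.0934 to 0.201 for Odc1 and 0.136 to 0.188 for Sat1. With the replicate number as a block, the adjusted p for Sat1 was 0.0546.

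Ifrd2 and Amd1 did not pass the test for day 4 against day 0. Ifrd2 was at 72.2, 82.3 and 78.0 CPM at day 0 and 83.9, 76.0 and 90.2 CPM in the libraries labelled day 4 of clone 5F, and at 57.1, 58.3 and 60.9 CPM and 62.6, 57.7 and 68.7 CPM in clone 7E. The log2 change was 0.14 in each clone, with adjusted p-values of 0.0937 and 0.071 (edgeR). Without replicate 2 it passed the test in both, at 0.24 in clone 5F (adjusted p = 0.000805) and 0.19 in clone 7E (adjusted p = 0.0322). Amd1, the decarboxylase, was at 41.8, 38.3 and 43.9 CPM and 36.3, 40.5 and 35.6 CPM in clone 5F, and at 35.6, 32.4 and 36.2 CPM and 34.5, 34.0 and 30.2 CPM in clone 7E, with log2 changes of -0.11 (adjusted p = 0.267) and -0.04 (adjusted p = 0.683). Without replicate 2, Amd1 passed the test in clone 5F at -0.22 (adjusted p = 0.00864). The paralogs Ifrd1 and Ifrd2 thus had log2 changes of 1.00 and 0.14 in clone 5F and of 1.14 and 0.14 in clone 7E.

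**Figure D2:**
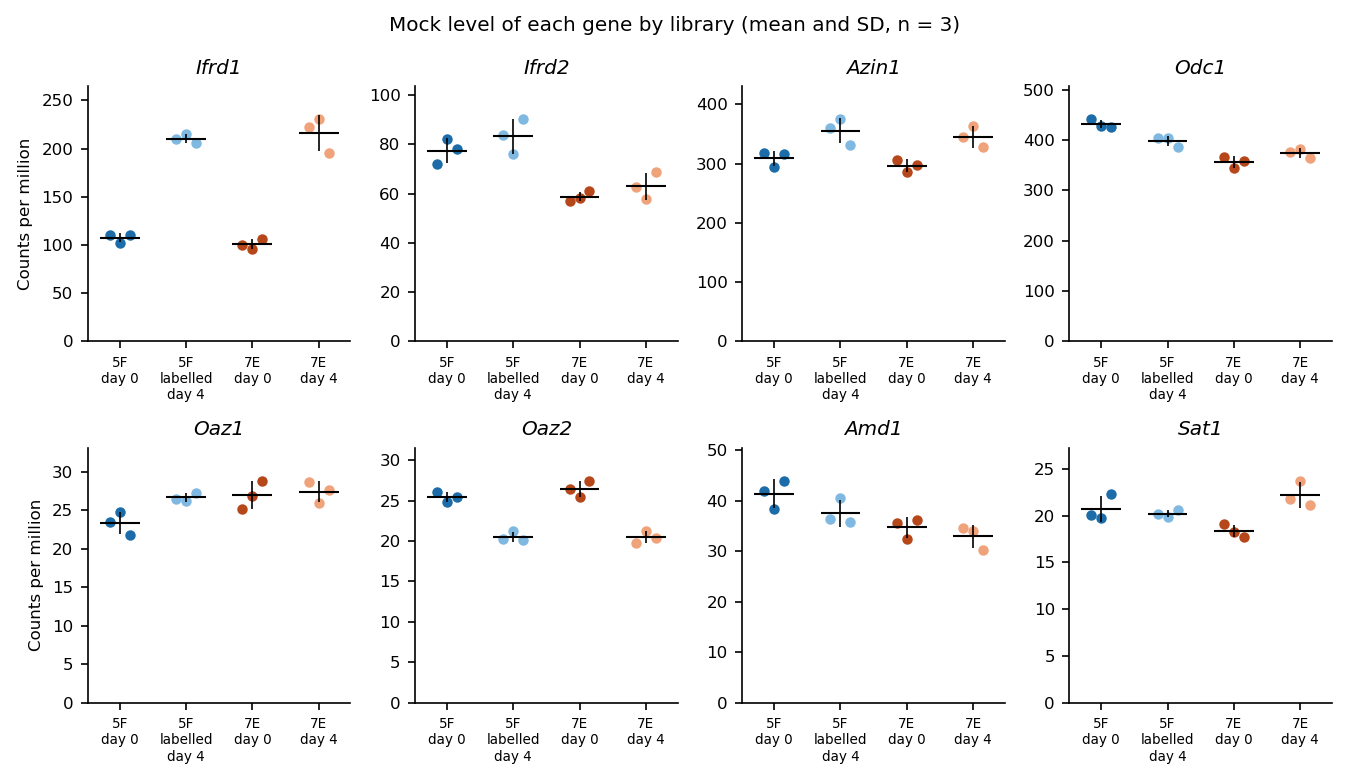
Mock level of each gene in CPM (y axis, from 0) in the 4 mock groups, 1 point per library, with the mean (horizontal line) and SD (vertical line) of 3 libraries. Ifrd1 lies between 96.1 and 110.2 CPM at day 0 and between 195.6 and 230.4 CPM later, while Oaz2 is lower later in both clones.

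The scale of these changes is that of size factors, which hold the median gene constant. When each library was instead scaled to its own spike-in reads, the median log2 change over all genes in clone 7E became -1.11, and Ifrd1 was at 0.04 (adjusted p = 0.507, edgeR) while all other members were lower, from -0.78 for Sat1 to -1.43 for Oaz2. The rise of Ifrd1 in clone 7E is therefore a rise relative to the other mRNAs of the library. In clone 5F the median over all genes moved to -0.074 on this scale, and Ifrd1 was at 0.94 and still passed the test. There Azin1 (0.17, adjusted p = 0.0584) and Oaz1 (0.16, adjusted p = 0.211) no longer passed the test.

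At day 0, before 4OHT, 4 members differed between the clones, beside 39.7% of all genes: 1 was higher and 3 lower in clone 7E, beside 20.0% and 19.7% of all genes. Ifrd2 (-0.37 ± 0.0514, adjusted p = 3.19e-06, edgeR), Odc1 (-0.25 ± 0.0396, adjusted p = 2.2e-05) and Amd1 (-0.22 ± 0.0625, adjusted p = 0.00735) were lower in clone 7E, and Oaz1 was higher (0.24 ± 0.0668, adjusted p = 0.00646). Ifrd1 (-0.06 ± 0.048) and Azin1 (-0.03 ± 0.0428) did not pass the test. Without replicate 3 the adjusted p was 0.202 for Oaz1 and 0.0668 for Amd1, and without replicate 1 it was 0.055 for Amd1. With the replicate number as a block, Sat1 also passed, at -0.14 (adjusted p = 0.0464, edgeR). In that fit 8108 of all 16299 genes passed, in place of 6477.

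Ifrd1 was the least stable of the 8 mRNAs. After 120 min of actinomycin D, 19.8% and 20.7% of its mock level were left in the 2 libraries of clone 5F at day 0, and after 360 min 4.45% to 4.90%. Its share left was among the lowest of the 11011 genes with a mean of at least 100 counts in these mocks. After 360 min it was at percentile 2.95 of them, where the median gene kept 40%. In clone 7E at day 0, 21.0% to 23.5% were left after 120 min and 6.48% to 7.53% after 360 min. The values are size-factor normalized counts on a common spike-in scale for each time point. This scale keeps the median gene near the same share in every group, at 39.5% to 40% after 360 min. Differences in share left between clones or days are therefore relative to the other mRNAs. Decay was faster in the first 120 min than afterwards: the log2 level changed by -1.15 per hour and then by -0.53 in clone 5F, and by -1.09 and then by -0.41 in clone 7E. A single half-life is thus a summary of a course that was not log-linear.

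At day 4 more Ifrd1 mRNA was left at each time, relative to the other mRNAs. In clone 7E the share was 36.6% ± 2.90 (SD, n = 3) after 120 min, 22.1% ± 0.493 after 240 min and 14.3% ± 1.09 after 360 min, against 22.0% ± 1.37, 11.1% ± 1.41 and 6.97% ± 0.528 at day 0. In the libraries of clone 5F labelled day 4 it was 28.6% ± 2.33, 14.2% ± 0.267 and 6.31% ± 0.517, against 20.3% ± 0.653 (n = 2), 9.73% ± 0.879 and 4.67% ± 0.225. The libraries of the 2 days did not overlap at any of the 3 times in either clone. The half-lives fitted to these courses were 96.0 and 131 min in clone 7E and 82.9 and 92.6 min in clone 5F, the earlier day first.

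The test of the change in slope did not call Ifrd1. The slope differed by 0.18 ± 0.0561 log2 per hour between the days in clone 7E (adjusted p = 0.193 and unadjusted p = 0.00465, edgeR) and by 0.08 ± 0.047 in clone 5F (adjusted p = 1). No member passed this test, beside 0.929% of all genes in clone 7E and 0.199% in clone 5F. In total, 156 genes passed it in clone 7E and 34 in clone 5F, and at an unadjusted p under 0.05 there were 2 members of 1472 genes (Ifrd1 and Amd1) in clone 7E and no member of 628 genes in clone 5F. With TMM scaling and no spike-in factor, Ifrd1 passed in clone 7E (0.18, adjusted p = 0.00516).

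Because the course was bent, each time point was also compared with the mock as a level of its own, an alternative chosen after seeing the data. It asks whether the log2 share left differed between the days. In clone 7E the share of Ifrd1 left was higher at day 4 by 0.73 ± 0.12 after 120 min (adjusted p = 0.000833, edgeR), by 0.99 ± 0.122 after 240 min (adjusted p = 1.12e-05) and by 1.04 ± 0.123 after 360 min (adjusted p = 5.21e-06). Of all genes, 1.39%, 3.24% and 5.33% passed at these times. Without 1 replicate number the adjusted p reached 0.086 at 120 min and stayed at or below 0.00954 at the later times. In clone 5F the difference was 0.50 ± 0.107 after 120 min (adjusted p = 0.038), 0.54 ± 0.101 after 240 min (adjusted p = 0.00674) and 0.43 ± 0.104 after 360 min (adjusted p = 0.0598), where 0.358%, 0.62% and 0.637% of all genes passed. These calls of clone 5F at 120 and 240 min were lost with each library's own spike-in scale, where the differences were 0.30 and 0.46 (adjusted p = 0.779 and 0.398, edgeR), and without 1 replicate number the adjusted p reached 1 and 0.533. With the replicate number as a block the difference at 120 min was 0.50 and its call was lost (adjusted p = 0.0945). The difference did not grow after 120 min in clone 5F, and without the mock libraries the slope of Ifrd1 there differed by -0.0152 log2 per hour. No other member passed at any time in either clone. The difference between the clones did not pass the test for Ifrd1, with 0.60 ± 0.162 after 360 min (adjusted p = 0.271), beside 0.0698%, 0.0483% and 0.0752% of all genes that passed after 120, 240 and 360 min.

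Between the clones at day 0, Ifrd1 decayed with slopes that differed by 0.10 ± 0.0629 log2 per hour (adjusted p = 1, edgeR), and no member passed, beside 0.0412% of all genes. With time points as levels, its share left was higher in clone 7E by 0.58 ± 0.119 after 360 min (adjusted p = 0.0117). Of all genes, 0.129%, 0.169% and 1.87% passed after 120, 240 and 360 min. On each library's own spike-in scale the difference was 0.52 and the call was lost (adjusted p = 0.195), and without 1 replicate number the adjusted p reached 0.315. For the difference between the clones in the change of slope, no gene of 17893 passed with edgeR and 443 had an unadjusted p under 0.05, none of them a member.

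**Figure D3:**
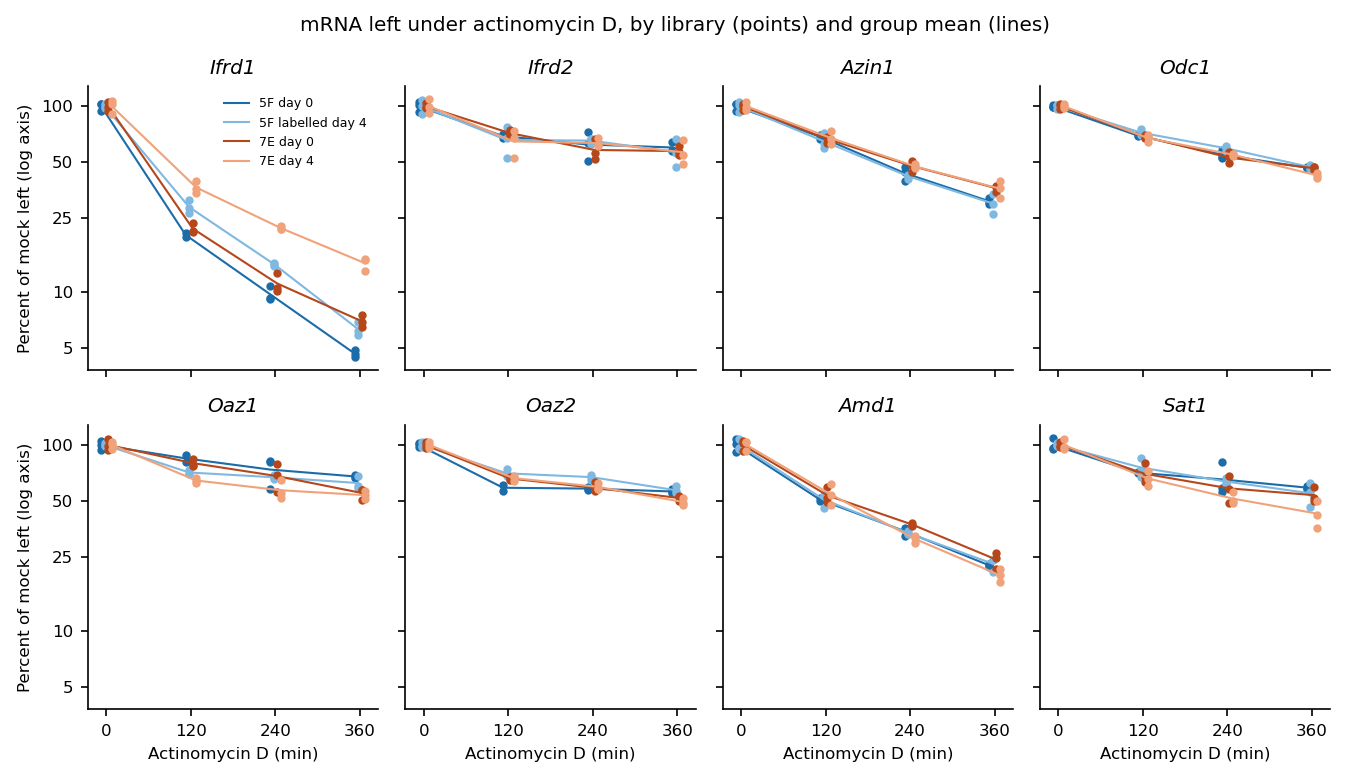
Percent of the mock level left (log y axis) against minutes of actinomycin D (x axis) for each gene, with 1 point per library and lines through group means. Within each clone the Ifrd1 libraries of day 4 lie above those of day 0 at every time of actinomycin D, with 14.3% against 6.97% left after 360 min in clone 7E and 6.31% against 4.67% in clone 5F, and the course of clone 5F labelled day 4 crosses that of clone 7E at day 0.

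Amd1 and Azin1 followed Ifrd1 in the order of stability. Amd1 had half-lives of 170 and 173 min in clone 5F at day 0 and in the libraries labelled day 4, and of 180 and 155 min in clone 7E at day 0 and day 4. After 360 min 21.9% to 22.9% was left in clone 5F at day 0 and 18.2% to 21.6% in clone 7E at day 4. The change in slope in clone 7E was -0.055 ± 0.0264 log2 per hour (adjusted p = 0.56, edgeR), so the sign was opposite to that of Ifrd1 without passing the test. Azin1 had half-lives of 209 and 205 min in clone 5F and 246 and 243 min in clone 7E, and its slope changed by -0.0053 ± 0.0188 and -0.0025 ± 0.0174 log2 per hour. Azin1 therefore rose in mock level in both clones with a change in slope smaller than its error. Between the clones at day 0 its slope differed by 0.04 ± 0.0154 log2 per hour (adjusted p = 0.859).

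The enzyme Odc1 had half-lives of 327, 339, 325 and 300 min in the order clone 5F day 0, clone 5F labelled day 4, clone 7E day 0 and clone 7E day 4. Its share left after 360 min was 46.6% to 46.9% in clone 5F at day 0 and 41.3% to 43.9% in clone 7E at day 4. In the same order, Oaz2 had 459, 482, 399 and 374 min, Sat1 486, 420, 405 and 295 min, Ifrd2 493, 482, 442 and 481 min and Oaz1 630, 562, 426 and 418 min. These 4 mRNAs kept at least 35.7% of their mock level in every library. Their half-lives are read from shallow slopes and their replicates scattered widely: the half-life of Ifrd2 in clone 5F at day 0 was 816, 369 and 464 min when each replicate number was fitted alone. The replicates of Oaz2, Sat1, Ifrd2 and Oaz1 overlapped each other in every combination of clone and day, except that in clone 5F at day 0 Oaz1 (552 to 745 min) lay above Oaz2 (422 to 485 min). The 95% intervals of the Ifrd1 and Amd1 slopes did not overlap except in clone 7E at day 4. All 32 slopes had 95% intervals below 0.

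**Figure D4:**
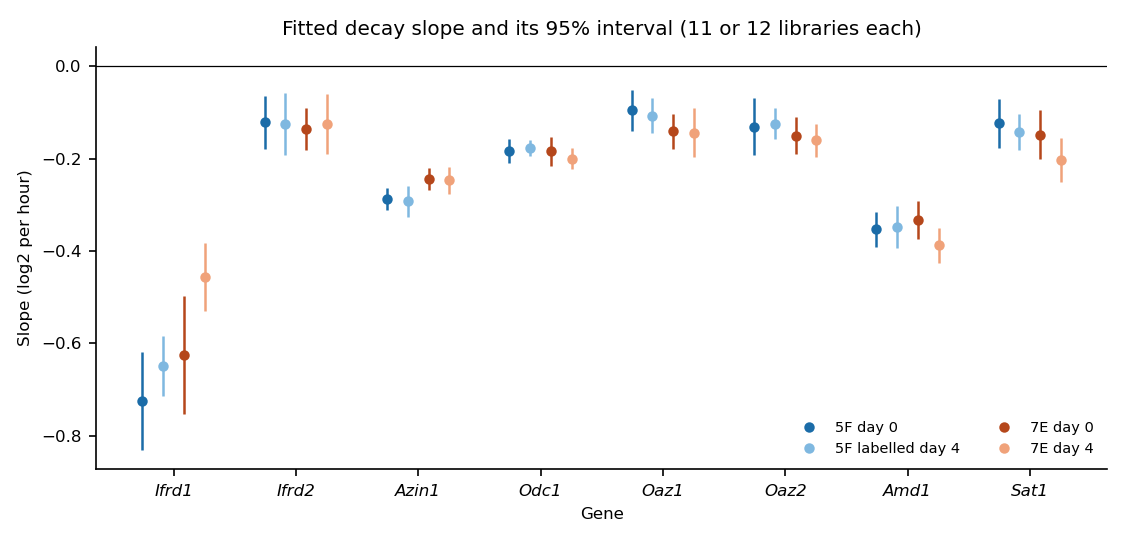
Slope of the log2 level per hour of actinomycin D (y axis) for each gene in the 4 combinations of clone and day, from least squares over 11 or 12 libraries, with 95% intervals. Ifrd1 has the steepest slopes, from -0.72 in clone 5F at day 0 to -0.46 in clone 7E at day 4, and for each other gene the intervals of the 4 combinations overlap.

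The 5 genes whose 16 group means of log2 level were most like those of Ifrd1 were, of 10593 genes with a mean of at least 100 counts, Ngdn (Pearson r = 0.970), Rpl3 (0.965), Sptbn4 (0.965), 2410006H16Rik (0.964) and Ttc17 (0.963). The group means share time points, normalization factors and libraries, so these values are descriptions. In level, Rpl3 was at 64.7 CPM in the mocks of clone 5F at day 0 and 139 CPM in those labelled day 4, and at 88.6 and 151 CPM in clone 7E. The others rose less in mock level. In the same order, Ngdn was at 122, 128, 119 and 130 CPM and 2410006H16Rik at 57.6, 71.4, 58.6 and 71.2 CPM. Sptbn4 was at 17.65, 19.9, 17.3 and 20.4 CPM and Ttc17 at 18.45, 21.3, 17.25 and 22.75 CPM. Among the members Azin1 was most like Ifrd1 (r = 0.868, rank 245), followed by Amd1 (0.518), while Oaz1 (-0.699) and Oaz2 (-0.867) ran opposite. The scale here is normalized within a time point, so it compares each mRNA with the other mRNAs left at that time.

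Binding of decay factors was measured by CRAC, in which a tagged protein is crosslinked to RNA by ultraviolet light and the bound fragments are sequenced. The authors pooled the replicates and gave, for each mRNA, the share of the scaled MTR4, SKIV2L and XRN1 counts that each protein took, with AVEN divided by the same sum. There are no replicates in this table and no test. Ifrd1 had the highest share of SKIV2L among the 5 members listed, at 0.490, which is percentile 87.0 of 7240 mRNAs and compares with a median of 0.267. Its shares of MTR4 (0.234, percentile 27.7) and XRN1 (0.276, percentile 34.7) were below the medians of 0.319 and 0.337. The paralog Ifrd2 had 0.290 for SKIV2L (percentile 55.9) and 0.414 for MTR4 (percentile 68.8), so the 2 genes differed in their leading factor.

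Odc1 and Azin1 had XRN1 as their leading factor among the 3, with 0.503 (percentile 83.1) and 0.445 (percentile 73.0), and SKIV2L shares of 0.205 and 0.257, below the median. Oaz1 had 0.435 for XRN1 (percentile 71.1) and 0.336 for SKIV2L (percentile 65.4). For AVEN, Oaz1 had the highest ratio of the members (0.535, percentile 90.6), followed by Odc1 (0.489, percentile 86.5), Ifrd2 (0.420), Ifrd1 (0.381, percentile 70.6) and Azin1 (0.223, percentile 29.9). The order for AVEN thus differed from that for SKIV2L, in which Ifrd1 came first. The authors also adjusted the shares for differences in mRNA level between the tagged lines, which does not make them binding per unit of mRNA. After this adjustment Ifrd1 stood at 0.441 for SKIV2L (percentile 81.6) and 0.234 for MTR4 (percentile 27.3). For XRN1 it stood at 0.342 (percentile 50.85, beside a median of 0.339). Ifrd2 then stood at 0.280 for SKIV2L, with MTR4 (0.414) and XRN1 (0.410) nearly equal. The authors' median RPKM over the tagged lines was 32.9 for Ifrd1, 19.3 for Ifrd2, 64.1 for Azin1, 290 for Odc1 and 11.7 for Oaz1. Oaz2, Amd1 and Sat1 were not found by name in the table.

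**Figure D5:**
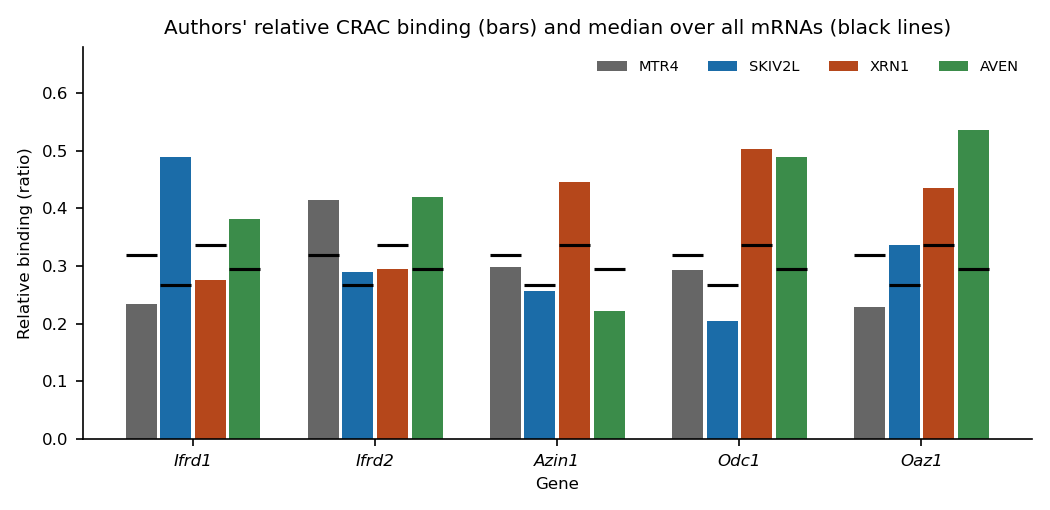
Relative CRAC binding (y axis, ratio from 0) of MTR4, SKIV2L, XRN1 and AVEN to the 5 genes in the table, as the authors' pooled values, with black lines at the median over 7240 mRNAs. Among MTR4, SKIV2L and XRN1, SKIV2L leads on Ifrd1 at 0.490 and XRN1 on Odc1 at 0.503. AVEN, a separate ratio to their sum, is highest on Oaz1 at 0.535.

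The levels of the members cannot be compared with each other from the counts alone, since only uniquely mapped reads were counted and several members have near copies in the genome. Of all 50-base windows of each transcript, 99.3% were unique for Ifrd1, 99.7% for Azin1 and 96.4% for Ifrd2, but 58% for Sat1, 39.6% for Odc1, 39.2% for Oaz2, 10.7% for Oaz1 and 9.86% for Amd1. Per kilobase of transcript, the mock level in clone 5F at day 0 was 196 CPM for Odc1, 63.5 for Azin1, 37.7 for Ifrd2, 31.8 for Ifrd1, 22.4 for Oaz1, 17.8 for Sat1, 13.8 for Oaz2 and 12.9 for Amd1. Per kilobase of unique windows it was 505 for Odc1, 218 for Oaz1, 133 for Amd1, 64.3 for Azin1, 40.0 for Ifrd2, 36.2 for Oaz2, 32.5 for Ifrd1 and 32.1 for Sat1. Oaz1 and Amd1 thus moved from the lower end of the order to places next to Odc1. Their values rest on the few unique stretches, and reads shared with the copies are uncertain. The copies Amd2 (0 to 7 counts per library), Oaz1-ps (30 to 107) and Oaz2-ps (8 to 29) held few unique counts of their own. Since shared reads were not counted, this does not show how strongly the copies are expressed. The antisense gene Gm7008, which shares 321 of 5858 exonic nt with Ifrd1, held 4 to 24 counts, against 302 to 6570 for Ifrd1.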

How the data were processed

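The members and gene lists were chosen with earlier results of these data known. The half-life table holds raw read counts per gene, which the authors made with STAR (mm10 with ERCC sequences, Gencode M16, unique reads only, 50-nt single-end reads of rRNA-depleted RNA, no strand). All 47 columns were matched to samples by label, leaving 0 per-sample columns unused. Counts were divided by DESeq2 size factors computed within each time point and scaled by 1 spike-in factor per time point (1, 0.649, 0.531 and 0.438 from 0 to 360 min, the median over libraries from 34 of 92 ERCC sequences with a mean over 50 counts). Levels and slopes were tested with edgeR 4.0.16 (quasi-likelihood test, Benjamini-Hochberg adjustment over all genes past edgeR's filter on low counts, threshold 0.05), and all 8 members passed the filter in each comparison. Half-lives came from least squares on the natural log of normalized counts + 1. The self-test on simulated data was run first. DESeq2 1.42.0 and limma 3.58.1 were alternatives, as were other scalings, filters, replicate blocks and left-out libraries. Replicates of a group differed by more than sampling noise: chi-square per gene was 2.59 to 94.0 over 46 pairs. Same-numbered libraries of clones 5F and 7E deviated together (correlations of deviations from group means 0.189 to 0.444 in the day 0 mocks and 0.116 to 0.822 under actinomycin D). The main fits leave the replicate number out, and the replicate block takes it in.

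In the binding table, the authors' relative binding is a ratio of pooled CRAC counts scaled to the smallest pool, their level is an RPKM, and the columns divided by RPKM were read as a score. Deposited fold changes, p-values and half-lives hold the study's own results and were not used. Named genes were all members, Skiv2l and Aven, up to 8 and 4 called genes with the largest change of the 2 gene lists, and the 5 genes most like Ifrd1. Gene positions and frames came from Gencode M21 (GRCm38).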

Additional observations from a re-analysis of the deposited data

Results flagged for a closer look

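The difference between the clones in the mock level change was marked for 3 genes because the interaction of clone and day passed the test itself (edgeR's quasi-likelihood test, Benjamini-Hochberg adjustment over all genes, 12 mock libraries). It was 0.19 on the log2 scale for Odc1 (adjusted p = 0.0271), which was at -0.08 in clone 5F and 0.11 in clone 7E. It was 0.31 for Sat1 (adjusted p = 0.0381), which was at 0.0024 in clone 5F and 0.31 in clone 7E. It was -1.31 for Skiv2l (adjusted p = 4.39e-10), which was at -0.0099 in clone 5F and -1.32 in clone 7E. On the scale of each library's own spike-in reads the difference was -0.84 for Odc1 and -0.72 for Sat1, the opposite sign. The spike-in share of clone 7E at day 4 and the day 0 level of Skiv2l in clone 7E move with these differences, and their part was not tested.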

How the results depend on the processing

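Of the values of single genes under alternatives, 317 of 376 mock changes and 367 of 408 slope changes kept their direction and their side of the threshold, and 20 and 40 changed sign. Of 224 slopes, 170 moved by less than the spread between replicates. The rise of Ifrd1 in clone 5F passed under every alternative run, and in clone 7E under all but the own spike-in scale. With each library's own spike-in reads, 2 members in place of 4 passed in clone 5F, 7 in place of 4 in clone 7E, where 14976 of 16333 genes passed, and 8 in place of 2 for the difference between clones, where 14373 of 17209 did. Mock changes that turned sign on that scale were Sat1 -0.0651 in clone 5F, Ifrd2 -0.956, Azin1 -0.84, Odc1 -0.988, Oaz1 -1.03 and Sat1 -0.784 in clone 7E, Oaz2 -0.0723 between clones at day 0, and for the difference between clones Ifrd1 -0.899, Ifrd2 -1.03, Azin1 -1.01, Odc1 -0.837, Amd1 -0.966 and Sat1 -0.719. Slope changes that did were Odc1 -0.0054, Oaz2 -0.0048 and Amd1 -0.0088 in clone 5F, Azin1 0.0167, Odc1 0.005, Oaz1 0.0154 and Oaz2 0.0112 in clone 7E, and Odc1 0.0104 and Oaz2 0.016 for the difference between clones. With limma-trend the difference of Ifrd2 was -0.002. With TMM, 1 member (Ifrd1) passed for the slope in clone 7E, where Azin1 was at 0.0026 and Oaz1 at 0.0037.

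With all 47 libraries in one fit, 2 members in place of 4 passed between clones at day 0 and 0 in place of 2 for the difference. That difference held 1 member without a filter and 1 with the replicate block, which lost Sat1 at 0.0546. The block added Sat1 between clones at day 0 (5 members for 4), ended the call of Ifrd1 at 120 min in clone 5F (adjusted p = 0.0945, edgeR) and changed no other call of a member. Between days within a clone, same-numbered mocks did not deviate together, with correlations of -0.397 to -0.0856 in clone 5F and -0.350 to -0.0401 in clone 7E. Under actinomycin D most same-numbered pairs did, at 0.0584 to 0.604 in clone 5F (7 of 8 pairs over 0.1) and -0.294 to 0.628 in clone 7E (6 of 9). Of the day 0 libraries, 0 of 6 mocks and 7 of 17 under actinomycin D correlated best with their own number, and the block left 4 members called in each clone. Without the mocks, slope changes turned in clone 5F for Ifrd1 -0.0152, Azin1 0.0068, Odc1 -0.0123, Oaz1 0.0317 and Oaz2 -0.0578, in clone 7E for Oaz1 0.0682, between clones for Odc1 0.0012, and for the difference for Azin1 -0.0131 and Oaz2 0.0385. Without 360 min they turned for Ifrd2 0.0178 and Amd1 -0.0085 in clone 5F, Odc1 0.0129 and Oaz2 0.0043 in clone 7E, Oaz2 0.0034 between clones and Oaz1 -0.0289 for the difference. With time points as levels, 1 member (Ifrd1) passed at 120 and at 240 min in clone 5F, 1 at each of 3 times in clone 7E, and 1 at 360 min between clones. No slope change that turned sign passed its test without the mocks or without 360 min. The cause was not tested.

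Leaving out 1 replicate number, 2 to 6 members passed in clone 5F, 2 to 4 between clones at day 0 and 0 to 0 for the difference. Values that turned sign ranged, in mock change, from -0.0236 to 0.0517 (Sat1, clone 5F), -0.0108 to 0.109 (Oaz1, clone 7E), -0.115 to 0.05 (Amd1, clone 7E) and, for the difference, -0.0515 to 0.0436 (Ifrd2) and -0.0078 to 0.0409 (Azin1). In slope they ranged, in clone 5F, from -0.0522 to 0.0236 (Ifrd2), -0.0023 to 0.0151 (Oaz2), -0.0105 to 0.0336 (Amd1), -0.0261 to 0.0203 (Azin1) and -0.0415 to 0.0011 (Sat1), in clone 7E from -0.0294 to 0.0268 (Oaz1), -0.0248 to 0.0298 (Ifrd2), -0.0217 to 0.025 (Azin1) and -0.0204 to 0.0023 (Oaz2), between clones from -0.0065 to 0.0034 (Odc1), and for the difference from -0.0005 to 0.0047 (Azin1) and -0.0266 to 0.0292 (Oaz1).

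Counts over all genes moved by over 1.5 times as follows. From 3998 in mock level in clone 5F they came to 1862 and 1962 without replicate 1 and 3 and 1793 with all 47 libraries. From 6551 in clone 7E they came to 14976 on the own spike-in scale (1.73% of them higher, median log2 change -1.11) and 4320 without replicate 1, and from 2055 for the difference to 14373, 753 and 1347 without replicate 1 and 3, and 997 with all 47. Splits also moved to 31.1% higher in clone 5F and 20.5% between clones on the own spike-in scale. For slopes, 34 in clone 5F became 2 to 5 without a replicate, 10 with limma, 19, 14 without mocks, 53 with all 47 and 64 to 114 by level, and 156 in clone 7E became 28 to 51 without a replicate, 267 with DESeq2, 246 with TMM (69.9% higher), 240 without mocks, 84 without 360 min, 245 with all 47 and 242 to 928 by level. Between clones 7 became 0 without any replicate number, 32 with DESeq2, 2, 3 without a filter, 23 without mocks, 1 without 360 min and 23 to 332 by level, and for the difference 0 became 4 with DESeq2, 1, 5 without mocks and 9 to 14 by level. All 47 libraries gave no separate setting for the difference in slope, nor did the 12 mocks for that in level. Among the members, counts per library were lowest for Ifrd1, at 302 in clone 5F at day 0 after 360 min, and were 409 to 1307 for Amd1, Sat1 and the antizymes.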

Other observations

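A second list held 10 other genes known for upstream frames or for translation under stress. Of these, Cebpb and Eprs had 0 upstream ATGs in the annotated transcript. The list was chosen with earlier results of these data known, so its counts describe the listed genes and are no test of upstream frames. All 10 were tested, and 7 rose and 0 fell in clone 5F, with a median log2 change of 0.31, and 8 rose and 0 fell in clone 7E, with a median of 0.77 (edgeR's quasi-likelihood test, beside 12.8% and 20.7% of all genes that rose). The 4 largest changes in clone 7E were those of Ddit3, Cebpb, Atf4 and Atf5, transcription factors of the stress response or of differentiation. Ddit3 was at 3.27 ± 0.900 CPM (SD, n = 3) at day 0 and 14.6 ± 1.51 CPM at day 4 in clone 7E, and at 3.18 ± 0.357 and 8.39 ± 1.10 CPM in clone 5F. Atf4 was at 166 ± 3.09 and 410 ± 30.9 CPM in clone 7E and at 128 ± 1.58 and 220 ± 3.53 CPM in clone 5F. The rise was larger in clone 7E for 5 of the 10 by the test of the difference, beside 6.65% of all genes: the log2 difference was 0.53 for Atf4, 0.47 for Atf5, 0.775 for Ddit3, 0.75 for Cebpb and 0.58 for Mdm2. These are changes relative to the other mRNAs of a library. On the scale of each library's own spike-in reads, where the median over all genes was -1.11 in clone 7E and -1.03 for the difference, 2 of the 10 (Atf4 at 0.25 and Ddit3 at 1.11) rose and 5 fell in clone 7E, 5 rose and 0 fell in clone 5F, and all 10 differences were below 0, of which 7 passed the test. Over all genes on that scale, 259 of 16333 rose and 14717 fell in clone 7E. In clone 5F 1063 of 16349 rose and 2351 fell, and for the difference 14319 of 17209 were lower. Without 1 replicate number the larger rise in clone 7E passed for 2 to 4 of the 10. In the slope of decay, 0 of the 10 passed in clone 5F, beside 0.199% of all genes. In clone 7E 1 did, beside 0.929% of all genes, and this was Eprs (-0.066 ± 0.0148 log2 per hour, adjusted p = 0.0243, edgeR). That call was lost without any 1 replicate number (adjusted p = 0.112 to 0.941), with TMM (0.526) and on the own spike-in scale (0.626). Of genes at an unadjusted p under 0.05, the list held 1 in clone 5F and 2 in clone 7E. Over all genes tested, 628 of 17108 and 1472 of 16791 were under it.

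The other genes of polyamine and hypusine metabolism split between the directions. Of 20 listed, 16 were tested for mock level. In clone 5F 1 rose and 2 fell, beside 12.8% and 11.6% of all genes, and in clone 7E 4 rose and 4 fell, beside 20.7% and 19.4%. On the own spike-in scale 1 (Arg2) rose and 15 fell in clone 7E, where 259 of all 16333 genes rose and 14717 fell. Arg2, an arginase that releases ornithine, rose in both from low levels, by 1.58 ± 0.255 in clone 5F and 2.12 ± 0.31 in clone 7E (adjusted p = 0.000115 and 7.18e-06, edgeR). It held a mean of 19.3 and 53.3 counts in the mocks of clone 5F and 9.67 and 42.0 counts in those of clone 7E. The methionine adenosyltransferase genes Mat2a and Mat2b fell in both clones, by 0.19 and 0.14 on the log2 scale in clone 5F and by 0.30 and 0.18 in clone 7E. In clone 7E alone Smox (0.27) and Azin2 (0.56) passed as higher and Paox (-0.47) and Sat2 (-0.99) as lower. The difference between the clones passed for Sat2 (-0.83 ± 0.253, adjusted p = 0.0338, edgeR) and for no other gene of the list, beside 11.9% of all genes. With any 1 replicate number left out it passed for 0 genes of the list. Of the 20, 17 were tested for a change in slope in clone 5F and 16 in clone 7E. None passed, beside 0.199% and 0.929% of all genes. At an unadjusted p under 0.05 the list held 1 gene in clone 5F and 2 in clone 7E. Over all genes tested, 628 of 17108 and 1472 of 16791 were under it.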
